A study of Mus musculus with 6 samples.

Results

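The MYC and MAX network was followed here as 10 listed genes of the 35527 genes to which reads were assigned: the paralogs Myc, Mycn and Mycl, their shared partner Max, the antagonists Mxd1, Mxd3, Mxd4, Mxi1 and Mnt, and the MAX-like gene Mlx. They were taken by name and not by a rule on any measured value, but with earlier results of these data known. The data are bulk RNA-seq profiles of the whole pancreas of 6 C57BL/6 mice at day 1 after birth. Wild-type mice (WT) gave 3 libraries, and mice labelled miR216a-/- (KO), which lack the pancreas-enriched microRNA miR-216a, gave the other 3, each from a separate donor mouse. No other allele, transgene or agent is named for either group, and the sources used here do not say how the null allele was made, nor the litters or the sex of the mice.

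MYC proteins are transcription factors that bind DNA only as dimers with MAX, through a basic region, a helix-loop-helix and a leucine zipper, mostly at the E-box sequence CACGTG. MXD proteins, MXI1 and MNT also pair with MAX and occupy E-boxes, but they carry a short domain that recruits the SIN3 corepressors, so that they oppose MYC. MLX is a second hub, which pairs with MNT, MXD1 and MXD4 and with the glucose-responsive factors MondoA (Mlxip) and ChREBP (Mlxipl). In the developing pancreas MYC is known for its part in the growth of progenitor and acinar cells.

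The microRNA that is missing in KO and the only match to its seed among the members are shown first, because the seed is the sequence by which the missing microRNA recognises its targets. The mature miR-216a-5p comes from chromosome 11, positions 28757018 to 28757039 on the plus strand (RefSeq, GRCm38.p6), and its seed, bases 2 to 8, is in capitals.
miR-216a-5p: uAAUCUCAgcuggcaacuguga
The longest annotated 3' UTR of each member (GENCODE M21, GRCm38) was searched for a match to the seed, either to all of bases 2 to 8 or to bases 2 to 7 followed by A. Mxi1 had 1 match and the other 9 members had 0, while 15.2% of 21028 genes with an annotated 3' UTR held at least 1. The Mxi1 match pairs with bases 2 to 8 without an A after it, and lies in the 3' UTR on chromosome 19, where the printed stretch covers positions 53372542 to 53372570 on the plus strand. The capitals mark the matched bases.
Mxi1 seed match: gcatttttattTGAGATTttgataactgt
The match is present in the transcripts Mxi1-201 and Mxi1-203, which carried nearly all of the gene's signal. A match of this kind is a description of the sequence and does not show that the microRNA acts there.

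Promoters were searched from 250 bases before to 50 bases after the RefSeq start (GRCm38.p6), and 9 of the 10 members, all but Myc, were in that table with 11 windows, of which 3 belong to Mxi1. The canonical E-box CACGTG, which reads the same on both strands, was present in 4 of the 11 windows, those of Max, Mlx, Mnt and Mxd4. Of all 32851 promoter windows, 7.15% held it. The stretches that hold it are printed with the E-box in capitals, because they are the sequence that the network's own dimers bind. They lie within the windows chr12:76962199-76962498 (minus strand), chr11:101087040-101087339 (plus), chr11:74830674-74830973 (plus) and chr5:34187661-34187960 (minus), in the same order. The E-box began 3 bases before the start in Max, 40 in Mlx, 123 in Mnt and 219 in Mxd4.
Max E-box: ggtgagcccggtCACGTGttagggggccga
Mlx E-box: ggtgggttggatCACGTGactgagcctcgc
Mnt E-box: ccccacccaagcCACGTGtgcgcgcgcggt
Mxd4 E-box: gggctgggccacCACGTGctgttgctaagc

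The promoters of Mycn and Mxd3 are printed because these were the 2 members with lower levels in all KO libraries. They were searched on both strands for the E2F-like octamers TTTGGCGC, TTTCGCGC, TTTCCCGC and TTTGCCGC, E2F factors being the main regulators of genes of the G1 to S transition. At least 1 of these octamers was present in 2.26% of all promoter windows. Among the 11 windows of the 9 members searched, that of Mycn was the only one with any. It had 3 matches, starting 183, 179 and 168 bases before the start, of which the first and the second overlap and the second reads on the opposite strand. The Mycn window is chr12:12941787-12942086 on the minus strand, with the matches in capitals.
Mycn promoter: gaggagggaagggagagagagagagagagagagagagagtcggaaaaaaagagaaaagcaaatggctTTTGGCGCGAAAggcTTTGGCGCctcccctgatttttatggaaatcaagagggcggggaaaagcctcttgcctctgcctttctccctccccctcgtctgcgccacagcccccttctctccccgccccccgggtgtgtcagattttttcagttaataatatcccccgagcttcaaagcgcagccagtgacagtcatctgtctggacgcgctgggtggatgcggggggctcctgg
The Mxd3 window, chr13:55329682-55329981 on the minus strand, held neither an E-box nor 1 of these octamers.
Mxd3 promoter: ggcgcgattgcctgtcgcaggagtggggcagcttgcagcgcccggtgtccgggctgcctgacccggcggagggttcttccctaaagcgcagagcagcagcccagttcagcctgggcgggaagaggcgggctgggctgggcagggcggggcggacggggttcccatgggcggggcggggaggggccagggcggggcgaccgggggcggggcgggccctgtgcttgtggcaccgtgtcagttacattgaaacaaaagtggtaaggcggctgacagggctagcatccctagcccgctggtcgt

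Depth was even, from 20565387 to 23028718 estimated reads per library. All 10 members passed the filter on low counts and were tested with 15805 genes in all. The labelled tissue was borne out by its markers, since Amy2a5, a pancreatic amylase gene, stood at 65534 to 133942 CPM. CPM is the read count relative to library size, in counts per megaread, scaled between libraries by the TMM method. The level of miR-216a itself was not analysed here. Several libraries stood apart. KO 1 had the Y-linked gene Ddx3y at 0.141 CPM, where the other 5 libraries had 61.8 to 102 CPM. Eif2s3y, also Y-linked, stood at 0 CPM in KO 1 and at 43.3 to 60.6 CPM in the other 5. By these genes KO 1 came from a female and the other 5 from males, and the part of sex in the KO 1 values was not tested. WT 1 held Alb, the liver's albumin gene, at 219 CPM against 6.41 to 15.1 CPM elsewhere. The 9 erythroid markers summed to 5949 CPM in WT 1 and 4806 CPM in KO 2, and to between 1707 and 2840 CPM in the other 4. Values for WT are given below in the order WT 1, 2 and 3, and likewise for KO.

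Whether loss of miR-216a goes with a different level of the network's genes was asked by comparing KO with WT. By edgeR's quasi-likelihood test, 0 of the 10 members passed an adjusted p of 0.05, and 0% of all tested genes did. The 4 members that differed at an unadjusted p under 0.05 were Mxd3 and Mycn, with lower levels in KO, and Mxi1 and Mycl, with higher levels. This compares with 12.6% of all tested genes, 5.62% in the higher and 7% in the lower direction. The same 4 genes were those whose KO and WT libraries did not overlap, against 19.4% of all tested genes, 9.07% with KO above and 10.3% with KO below. Of the 10 members, 8 had a higher and 2 a lower fitted level in KO, with a median log2 fold change of 0.15 against 0.01 for all tested genes. Without KO 3 that median was 0.05. Without WT 3 the count of 4 became 2, Mxd3 and Myc, where 7.36% of all genes had an unadjusted p under 0.05. In bulk tissue, fewer cells of a type and less RNA per cell cannot be told apart.

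**Figure D1:**
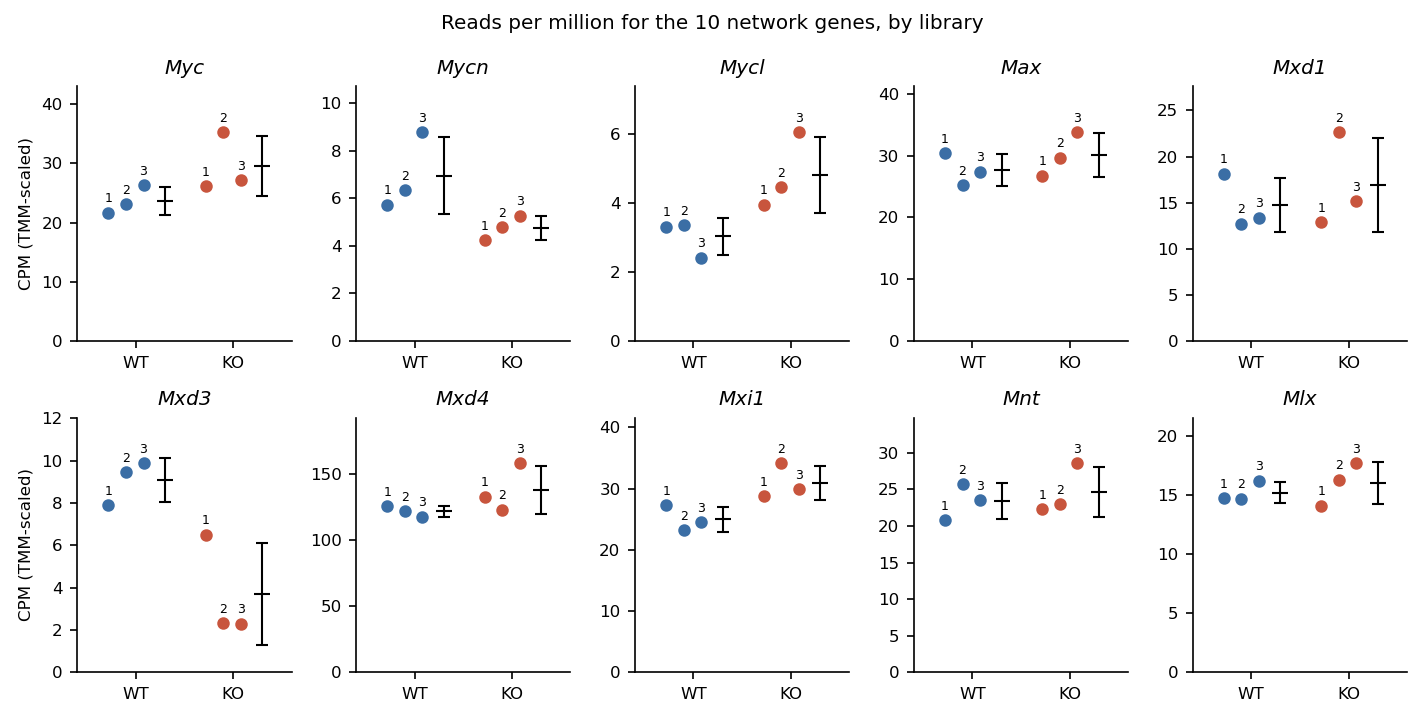
TMM-scaled CPM (vertical axes, from 0) for each of the 10 network genes in the 3 WT (blue) and 3 KO (red) libraries, numbered by replicate, with the mean and SD beside each group. Mxd3 and Mycn lie lower and Mxi1 and Mycl higher in all KO libraries, while the groups of the other 6 genes overlap.

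To compare genes with each other, levels were taken per transcript length, as the summed TPM of a gene's transcripts. Mxd4, which encodes an antagonist of MYC typical of differentiated cells, was the highest of the 10, at 38.8 ± 4.70 TPM in WT and 44.6 ± 8.48 TPM in KO (SD, n = 3 in this and all following ± values). Max followed with 23.8 ± 1.352 TPM in WT, then Myc with 16.0 ± 1.39, Mxi1 with 14.0 ± 1.33 and Mlx with 13.0 ± 1.64 TPM. The WT ranges of Myc and Mxi1, and those of Mxi1 and Mlx, overlapped, so the order within these pairs is not fixed by the data. Mxd3 came sixth in WT at 9.04 ± 1.12 TPM, overlapping Mnt at 7.06 ± 1.38 TPM. Mxd1 at 4.32 ± 0.875 and Mycn at 3.78 ± 0.463 TPM overlapped too, and Mycl was lowest at 1.20 ± 0.294 TPM. In KO the order differed for Mxd3, which at 3.86 ± 2.69 TPM had a lower mean than Mxd1 at 4.87 ± 0.924 TPM, with ranges that overlapped.

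Among the MYC paralogs, Myc, the broadly expressed member (GRCm38 chromosome 15, positions 61985391 to 61990374), stood at 21.7, 23.1 and 26.3 CPM in WT and at 26.2, 35.3 and 27.2 CPM in KO. KO 2 was the highest library, and WT 3 and KO 1 were level, so the groups overlapped. The means were 23.7 ± 2.38 in WT and 29.6 ± 5.01 CPM in KO, a log2 fold change of 0.32 ± 0.14 (SE, edgeR adjusted p = 0.412). On the TPM scale, by contrast, the Myc values of KO (19.0, 22.4 and 20.6 TPM) all lay above those of WT (14.4, 16.97 and 16.7 TPM), so whether the groups overlap depends on the scale. Without KO 2 the log2 fold change of Myc was 0.17, and without WT 1 and KO 2 it was 0.11.

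Mycn, the paralog typical of embryonic progenitor cells (chromosome 12, 12936093 to 12941914), stood at 5.73, 6.33 and 8.78 CPM in WT and at 4.24, 4.78 and 5.26 CPM in KO. All KO values lay under the WT range, with a gap that is small beside the spread within WT. The means were 6.95 ± 1.61 and 4.76 ± 0.510 CPM, a log2 fold change of -0.54 ± 0.21 (SE, edgeR adjusted p = 0.337). Its share of the TPM of the 3 paralogs was 17.1 to 19.4% in WT and 9.95 to 11.3% in KO. Without WT 3, the library with the highest Mycn level, the log2 fold change was -0.34, and without KO 1 it was -0.47. In both cases, and without KO 2, Mycn was not among the members with an unadjusted p under 0.05.

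Mycl, which encodes L-MYC (chromosome 4, 122995652 to 123002485), stood at 3.32, 3.37 and 2.42 CPM in WT and at 3.96, 4.47 and 6.07 CPM in KO. Here all KO libraries lay above WT, with KO 3 the highest. The means were 3.03 ± 0.532 and 4.83 ± 1.103 CPM, a log2 fold change of 0.67 ± 0.24 (SE, edgeR adjusted p = 0.316). Over all 6 libraries it has the lowest mean of the 10 genes. Without KO 3 its log2 fold change was 0.47, and without WT 3 it was 0.54. In neither case was Mycl among the members with an unadjusted p under 0.05. The genes nearest to its pattern were Fgl2, Chrnb2 and Sult5a1, with root mean square differences in centred log2 CPM of 0.071, 0.076 and 0.080.

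Max, the obligate partner of all 3 paralogs (chromosome 12, 76937269 to 76962201), stood at 30.4, 25.2 and 27.4 CPM in WT and at 26.8, 29.6 and 33.8 CPM in KO. The groups overlapped widely, with means of 27.7 ± 2.63 and 30.1 ± 3.56 CPM and a log2 fold change of 0.12 ± 0.12 (SE, edgeR adjusted p = 0.733). It was 0.028 without KO 3, 0.056 without WT 2 and between 0.12 and 0.20 without each of the other libraries.

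Mxd3, the MXD member expressed in cycling cells during S phase (chromosome 13, 55325168 to 55329823), showed the widest difference of the 10 genes. It stood at 7.91, 9.46 and 9.87 CPM in WT and at 6.50, 2.34 and 2.31 CPM in KO. KO 2 and KO 3 lay far below WT, and KO 1 was nearest to WT. The means were 9.08 ± 1.03 and 3.72 ± 2.41 CPM, a log2 fold change of -1.29 ± 0.39 (SE, edgeR adjusted p = 0.258). DESeq2 called Mxd3 lower (adjusted p = 0.0321), as did edgeR without KO 1 (log2 fold change -1.96, adjusted p = 0.00602). Of all 15805 genes, DESeq2 called 132 higher and 304 lower. Without KO 1, edgeR called 87 higher and 275 lower of 16091. Over all settings tried, the adjusted p of Mxd3 lay between 0.00602 and 0.669.

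Markers of cycling cells also had lower levels in KO. All 12 listed markers had a lower level in KO at an unadjusted p under 0.05, as did 7% of all tested genes. Like the other lists, these markers were chosen with earlier results of these data known. Among the 12 were Mki67, Top2a, Cdk1, Pcna and Ccne1. After adjustment 0 of these markers were called, their median log2 fold change was -1.27, and none stood at 0 CPM in all libraries. Their summed level was 919.7 to 1138 CPM in WT and 688.5, 437.1 and 259.8 CPM in KO 1, 2 and 3. KO 1 was thus nearest to WT for these markers and for Mxd3. Mycn was lowest in KO 1, so that within KO its order, at only 4.24 to 5.26 CPM, ran opposite to that of the markers. Within WT its order was that of the markers, with Mycn at 5.73, 6.33 and 8.78 CPM beside 919.7, 990.7 and 1138 CPM. The genes whose pattern over the 6 libraries was nearest to that of Mxd3 were Racgap1 and Cep55, which act in cytokinesis, and Stmn1, a regulator of microtubules. Their root mean square difference from Mxd3 in centred log2 CPM was 0.048, 0.055 and 0.065. The part of a lower number of cycling cells in the levels of Mxd3 and Mycn was not tested.

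Of the other antagonists, Mxi1 (chromosome 19, 53310518 to 53375810) stood at 27.2, 23.2 and 24.5 CPM in WT and at 28.7, 34.1 and 29.9 CPM in KO. All KO libraries lay above WT, although WT 1 and KO 1 were close. The means were 25.0 ± 2.05 and 30.9 ± 2.82 CPM, a log2 fold change of 0.31 ± 0.11 (SE, edgeR adjusted p = 0.312). Mxi1 is the member whose 3' UTR holds the seed match printed above. Its nearest genes in pattern were Arglu1, Trib2 and Dgka, with root mean square differences of 0.026, 0.026 and 0.038. The highest Mxi1 value within each group fell in WT 1 and KO 2, the libraries with the most erythroid RNA. Without those libraries the log2 fold change was 0.29, and Mxi1 was no longer among the members with an unadjusted p under 0.05. The same held without WT 2, WT 3 or KO 2 alone, and it did not hold without WT 1 alone. The part of erythroid RNA in the Mxi1 level was not tested.

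Mxd1, induced as cells leave the cycle and differentiate (chromosome 6, 86647042 to 86669161), stood at 18.1, 12.7 and 13.4 CPM in WT and at 12.9, 22.7 and 15.2 CPM in KO. Its 2 high libraries were again WT 1 and KO 2, and the groups overlapped. The log2 fold change was 0.20 ± 0.23 (SE, edgeR adjusted p = 0.773), and it turned to -0.07 without KO 2. All 9 erythroid markers were detected, and their summed level was 2707 to 5949 CPM in WT and 1707 to 4806 CPM in KO. The part of erythroid RNA in the Mxd1 level was not tested.

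Mxd4 (chromosome 5, 34173883 to 34187720) stood at 126, 122 and 117 CPM in WT and at 133, 123 and 158 CPM in KO, where KO 3 was the highest and KO 2 lay within the WT range. The log2 fold change was 0.18 ± 0.11 (SE, edgeR adjusted p = 0.540), and it was 0.071 without KO 3. Mnt, the broadly expressed antagonist (chromosome 11, 74830920 to 74845725), stood at 20.8, 25.7 and 23.5 CPM in WT and at 22.3, 22.97 and 28.5 CPM in KO. Its groups overlapped, with a log2 fold change of 0.08 ± 0.13 (SE, edgeR adjusted p = 0.863), which was -0.05 without KO 3.

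Mlx (chromosome 11, 101087277 to 101092207) stood at 14.8, 14.7 and 16.2 CPM in WT and at 14.1, 16.3 and 17.7 CPM in KO. The groups overlapped, and the log2 fold change was 0.08 ± 0.13 (SE, edgeR adjusted p = 0.850). Of the further proteins of the network, Mga, a very large MAX partner, stood at 61.7 ± 8.91 CPM in WT and 76.5 ± 7.92 CPM in KO (log2 fold change 0.31 ± 0.13 SE, edgeR adjusted p = 0.372). Mlxip and Mlxipl, the glucose-sensing partners of MLX, stood at 61.7 ± 2.91 and 65.2 ± 8.36 CPM in WT and at 69.1 ± 6.88 and 69.7 ± 11.4 CPM in KO. For these 3 genes the groups overlapped.

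**Figure D2:**
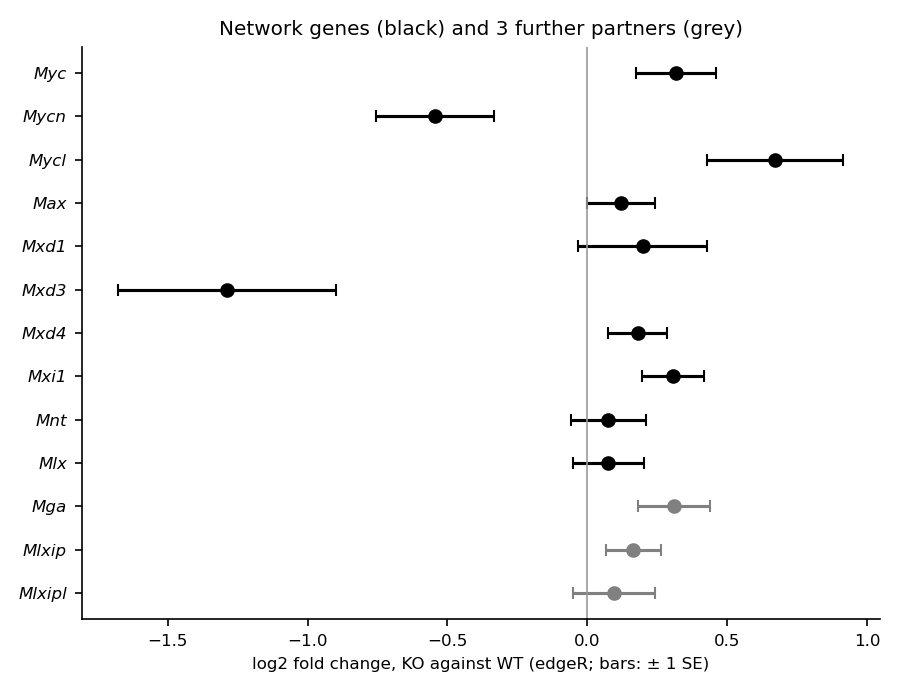
Fitted log2 fold change of KO against WT (horizontal axis, edgeR) with bars of 1 SE for the 10 network genes in black and Mga, Mlxip and Mlxipl in grey. Mxd3 at -1.29 and Mycn at -0.54 lie left of 0, and the other genes lie between 0.08 and 0.67.

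The balance between MYC paralogs and their antagonists was described by summing TPM. The 3 paralogs summed to 19.0, 22.2 and 21.8 TPM in WT and to 23.2, 26.8 and 26.8 TPM in KO. The 5 antagonists Mxd1, Mxd3, Mxd4, Mxi1 and Mnt summed to 73.8, 80.6 and 65.3 TPM in WT and to 79.0, 68.2 and 87.0 TPM in KO. In TPM the paralog sum was above WT in each KO library, while the antagonist sums overlapped. In CPM the paralog sums overlapped as well, at 30.7, 32.8 and 37.5 in WT and 34.4, 44.6 and 38.5 in KO. Their ratio was 0.289 ± 0.040 in WT and 0.331 ± 0.054 in KO, a difference of 0.042, which is of the size of the spread. It was 0.012 without KO 2 and 0.0096 from summed CPM. Within the antagonists, Mxd3 took 10.9 to 13.5% of the sum in WT and 8.81, 3.13 and 2.85% in KO, and Mxi1 took 18.01 to 20.3% in WT and 20.7 to 25.8% in KO. In every library Mxd4 was the largest part, with 51.8 to 61.1%. TPM are shares of a library, and the 7 acinar markers alone summed to 143619 to 207103 CPM in WT and 191638 to 241174 CPM in KO. The part of the enzyme transcripts in these sums was not tested.

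**Figure D3:**
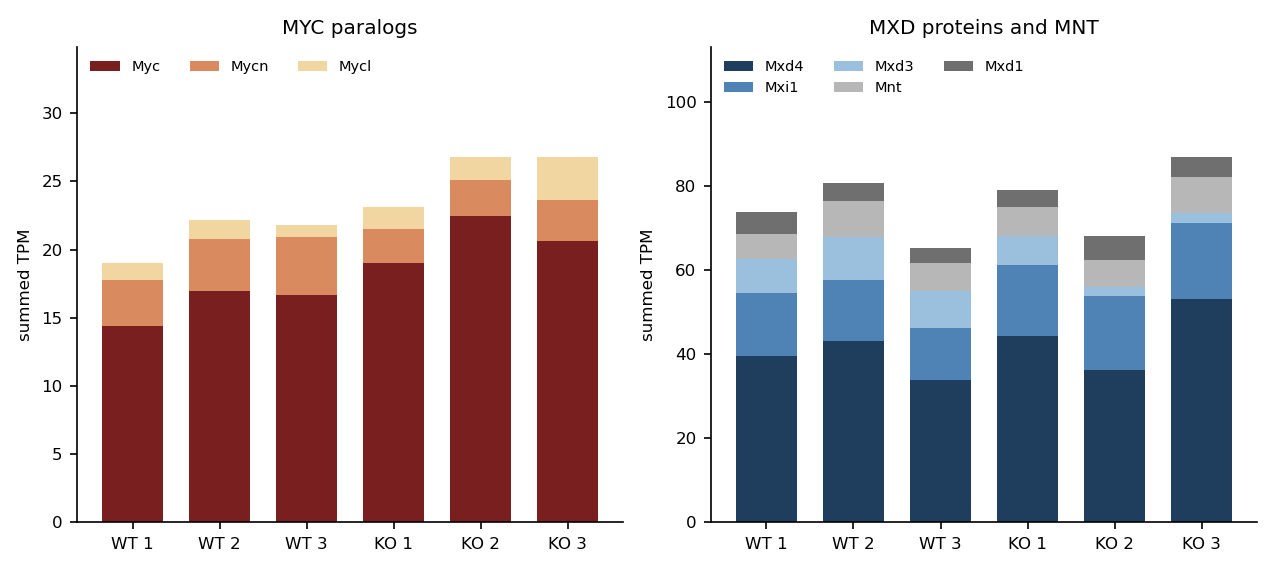
Summed TPM (vertical axes) of the MYC paralogs (left) and of the MXD genes, Mxi1 and Mnt (right) in each of the 6 libraries, stacked by gene. The Mycn and Mxd3 segments are smaller in KO, and the total of the paralogs lies at 19.0 to 22.2 TPM in WT and 23.2 to 26.8 TPM in KO.

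Several members are made as more than 1 protein, and the Salmon tables give a level for each transcript. Shares of a gene's TPM were compared for the 19 transcripts that took at least 10% on average, with a two-sided exact permutation test whose smallest p with 3 against 3 libraries is 0.1. The clearest split was in Mlx, although its gene level overlapped between the groups. Mlx-202, with 244 coding codons, took 71.1, 34.5 and 56.8% in WT and 27.6, 31.1 and 14.2% in KO. Mlx-201, the longest form with 298 codons, took 15.2, 7.43 and 1.51% in WT and 23.8, 23.2 and 16.9% in KO. For both transcripts the groups did not overlap (exact permutation p = 0.1 each, Benjamini-Hochberg adjusted p = 0.95 over the 19). As shares of reads the split was as wide, with Mlx-202 at 66.5 ± 19.3% in WT and 32.2 ± 8.07% in KO. Both were singled out after their values were seen. These transcripts share most of their sequence and the gene has a low level, so the division of reads between them is an estimate. Within WT, Mlx-203 (214 codons) ranged from 0 to 32.4%.

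Max showed its known pair of forms. Max-201, which encodes the shorter protein of 151 codons, took 61.9 ± 5.23% of the TPM in WT and 67.4 ± 1.98% in KO. Max-202, the longer form of 160 codons, took 15.2, 17.5 and 12.1% in WT and 8.75, 13.5 and 11.4% in KO, and its groups overlapped (exact permutation p = 0.2). As shares of reads the Max-202 groups did not overlap, with 18.2, 23.2 and 16.1% in WT and 11.3, 15.96 and 14.5% in KO (exact permutation p = 0.1, Benjamini-Hochberg adjusted p = 0.475 over the 19). For Mxi1, the transcript Mxi1-203 with 228 codons held 69.0 ± 5.88% in WT and 68.5 ± 5.87% in KO, and Mxi1-201 with 295 codons held 28.8 ± 6.53 and 27.8 ± 4.45%. Both forms carry the seed match, and their proportion differed by less than the spread.

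**Figure D4:**
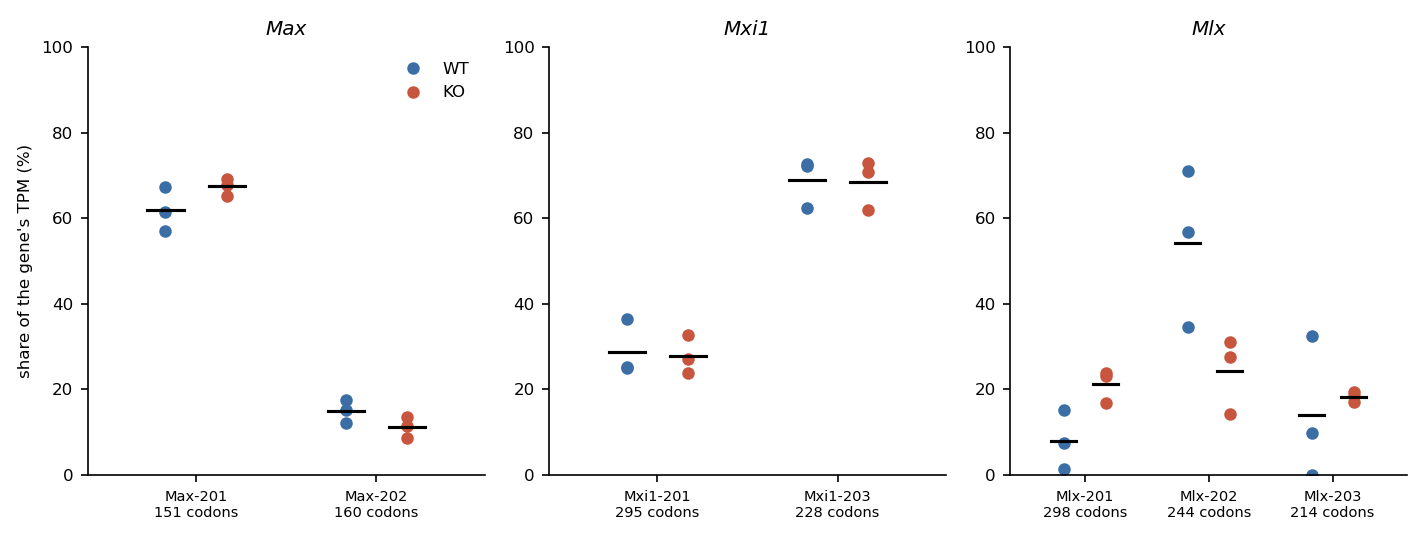
Share of the gene's TPM (vertical axis, percent) taken by each protein-coding transcript with a mean share of at least 10%, for Max, Mxi1 and Mlx in the WT (blue) and KO (red) libraries, with black bars at group means. Mlx-202 lies at 34.5 to 71.1% in WT and 14.2 to 31.1% in KO, while on this TPM scale the groups overlap for the transcripts of Max and Mxi1.

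Genes around the network were taken from lists, which were chosen with earlier results of these data known. In edgeR 0 genes of any list passed the adjusted threshold. Of all tested genes, 5.62% had a higher and 7% a lower level in KO at an unadjusted p under 0.05. Of the 23 corepressors and coactivators, 13 were higher and 10 lower in KO, with a median log2 fold change of 0.01, equal to that of all tested genes. Sin3a and Sin3b, the scaffolds that MXD proteins recruit, stood at 49.99 ± 1.66 and 61.5 ± 0.883 CPM in WT and at 48.5 ± 5.83 and 64.7 ± 4.57 CPM in KO. Unadjusted p was under 0.05 for Actl6a, a subunit of chromatin remodelling and acetyltransferase complexes, at 30.9 ± 2.51 CPM in WT and 24.0 ± 0.915 CPM in KO. It was also under 0.05, in the higher direction, for Mycbp2 (99.96 ± 1.94 against 114 ± 1.82 CPM in KO) and for Pcgf6, a partner of MGA in a Polycomb complex (11.96 ± 0.942 against 14.9 ± 1.47 CPM in KO). Thus 2 genes of this list were higher and 1 lower at that threshold. For these 3 genes, picked by their p, the groups did not overlap. Of the 23 genes, 5 had every KO library above WT and 2 had every KO library below. The shares over all tested genes were 9.07% and 10.3%.

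Of 21 genes that act on MYC protein or mRNA stability, 20 were tested, 11 of them higher and 9 lower, with a median of 0.03. Unadjusted p was under 0.05 for 3 higher and 5 lower genes, where 5.62% of all tested genes were higher and 7% lower at that threshold. Ppp2r5a, a regulatory subunit of the phosphatase PP2A, stood at 77.9 ± 4.58 CPM in WT and 98.3 ± 4.28 CPM in KO. Stub1, a ubiquitin ligase, stood at 82.4 ± 7.004 and 66.3 ± 2.96 CPM, and the mitotic kinase gene Plk1 at 25.1 ± 4.34 and 9.64 ± 6.50 CPM. Within KO, Plk1 had 17.1, 5.95 and 5.82 CPM, so KO 1 was again nearest to WT, as with Mxd3. DESeq2 called Ppp2r5a higher (adjusted p = 0.0400) and Plk1 lower (adjusted p = 0.00968), where of all 15805 genes it called 132 higher and 304 lower. The remaining 5, named after their values were seen, were Pim3 and Igf2bp2 with higher and Aurka, Skp2 and Cip2a with lower levels in KO. Of these 5, DESeq2 called Aurka lower (adjusted p = 0.0256). Without KO 1, edgeR called Plk1, Aurka and Cip2a lower and Pim3 higher. Pim3, a kinase gene, stood at 23.3 ± 3.62 CPM in WT and 55.5 ± 31.7 CPM in KO, with groups that overlapped.

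Known MYC target genes were listed in 3 classes, also with earlier results of these data known. Of 33 ribosome synthesis genes, 12 were higher and 21 lower, with a median log2 fold change of -0.05. That median was 0.025 without WT 3, 0.034 without KO 1 and -0.11 without KO 3. At an unadjusted p under 0.05, where 5.62% of all tested genes were higher and 7% lower, this list had 0 higher and 2 lower genes. These were Mrto4, a ribosome assembly factor (19.3 ± 2.63 CPM in WT and 14.9 ± 1.61 CPM in KO), and Nop56, a nucleolar protein of small nucleolar RNPs (78.1 ± 8.61 and 62.8 ± 8.75 CPM). Polr1b, a subunit of RNA polymerase I, stood at 21.3 ± 1.62 and 26.5 ± 4.58 CPM. Of 21 genes of nucleotide and polyamine synthesis, 19 were lower and 2 higher in KO, with a median of -0.20 (-0.13 without WT 3), and 7 had an unadjusted p under 0.05, all lower, where 7% of all tested genes had a lower level at that threshold.

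Odc1, which encodes ornithine decarboxylase, the first enzyme of polyamine synthesis and a classic MYC target, stood at 195, 225 and 270 CPM in WT and at 127, 182 and 143 CPM in KO. The KO values lay under the WT range, and the log2 fold change was -0.61 ± 0.16 (SE, edgeR adjusted p = 0.236). Tyms, thymidylate synthase, stood at 45.9 ± 6.31 CPM in WT and 21.7 ± 9.62 CPM in KO, and Ppat, which starts purine synthesis, at 25.1 ± 2.26 and 19.9 ± 1.25 CPM. Tyms is also a gene of S phase, and the cycling markers given above also had lower levels in KO. Of 21 target genes of protein folding, growth and metabolism, 18 were lower and 3 higher, with a median of -0.11. At an unadjusted p under 0.05, where 7% of all tested genes had a lower level, this list had 4 genes, all lower. Cdk4, the kinase of G1 phase, stood at 134 ± 7.10 and 102 ± 9.39 CPM, Ldha, lactate dehydrogenase A, at 139.9 ± 13.1 and 105 ± 10.5 CPM, and the glycolytic gene Pkm at 211 ± 2.07 and 175 ± 11.8 CPM. The fourth, named after its values were seen, was Cbx3, with 122 ± 1.20 and 104 ± 7.85 CPM. DESeq2 called Odc1, Tyms, Cdk4 and Ldha lower, at adjusted p = 0.0196, 0.00749, 0.0212 and 0.0441. Of all 15805 genes it called 132 higher and 304 lower. Without KO 1, edgeR also called Tyms lower (adjusted p = 0.0292).

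Of 13 genes that MYC is known to repress, 11 were higher and 2 lower, with a median of 0.14. That median was 0.084 without KO 2, 0.086 without KO 3 and 0.076 without WT 1 and KO 2. Unadjusted p was under 0.05 for 2 of them, both higher, where 5.62% of all tested genes had a higher level at that threshold. Ndrg2, a gene of differentiated and quiescent cells, stood at 33.1, 31.7 and 26.6 CPM in WT and at 36.6, 39.9 and 74.7 CPM in KO, with KO 3 far above the rest. Pdgfrb, a receptor of mesenchymal cells, stood at 63.8 ± 4.50 and 75.0 ± 3.49 CPM. It is itself on the list of 6 mesenchyme markers, of which 3 were higher and 3 lower in KO, with summed levels of 7724 to 9442 CPM in WT and 5135 to 8168 CPM in KO. Cdkn1a, the inhibitor p21, stood at 31.5, 36.0 and 44.6 CPM in WT and at 33.3, 43.2 and 95.1 CPM in KO, where again KO 3 stood apart and the groups overlapped. Mycl was highest in that library too.

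Of 7 known targets of MLX and its glucose-sensing partners, 4 had an unadjusted p under 0.05, 3 with a higher and 1 with a lower level in KO. At that threshold 5.62% of all tested genes had a higher and 7% a lower level. The list was chosen with earlier results of these data known, so these counts are a description. Txnip, an arrestin-like protein that restrains glucose uptake and is the best known target of MondoA and MLX, stood at 592, 475 and 435 CPM in WT and at 736, 852 and 981 CPM in KO. Each KO library lay well above WT, with means of 501 ± 81.7 and 856 ± 122 CPM and a log2 fold change of 0.77 ± 0.15 (SE, edgeR adjusted p = 0.205). It was called higher by DESeq2 (adjusted p = 0.000245) and by edgeR without KO 1 (adjusted p = 0.0401). Klf10, a zinc finger factor, stood at 41.8 ± 9.49 and 63.0 ± 4.94 CPM, and G6pc2 at 65.1 ± 3.36 and 37.6 ± 9.79 CPM. DESeq2 called Klf10 higher (adjusted p = 0.0289) and G6pc2 lower (adjusted p = 0.00362), where of all 15805 genes it called 132 higher and 304 lower. G6pc2 is a gene of beta cells, and the 5 endocrine markers summed to 6614 to 8479 CPM in WT and 5766 to 6319 CPM in KO. Of these markers 3 were lower in KO, Ins1, Ins2 and Sst, with log2 fold changes of -0.40, -0.46 and -0.46. The other 2 were slightly higher, Gcg and Chga, with 0.03 and 0.06. The part of the beta cell or endocrine share in the G6pc2 level was not tested. Of all 7 genes, 5 were higher and 2 lower, with a median of 0.38, and Arrdc4, the relative of Txnip, stood at 40.3 ± 7.33 and 45.5 ± 6.19 CPM. Without KO 2 the median was 0.24, and without WT 1 and KO 2 it was 0.18.

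**Figure D5:**
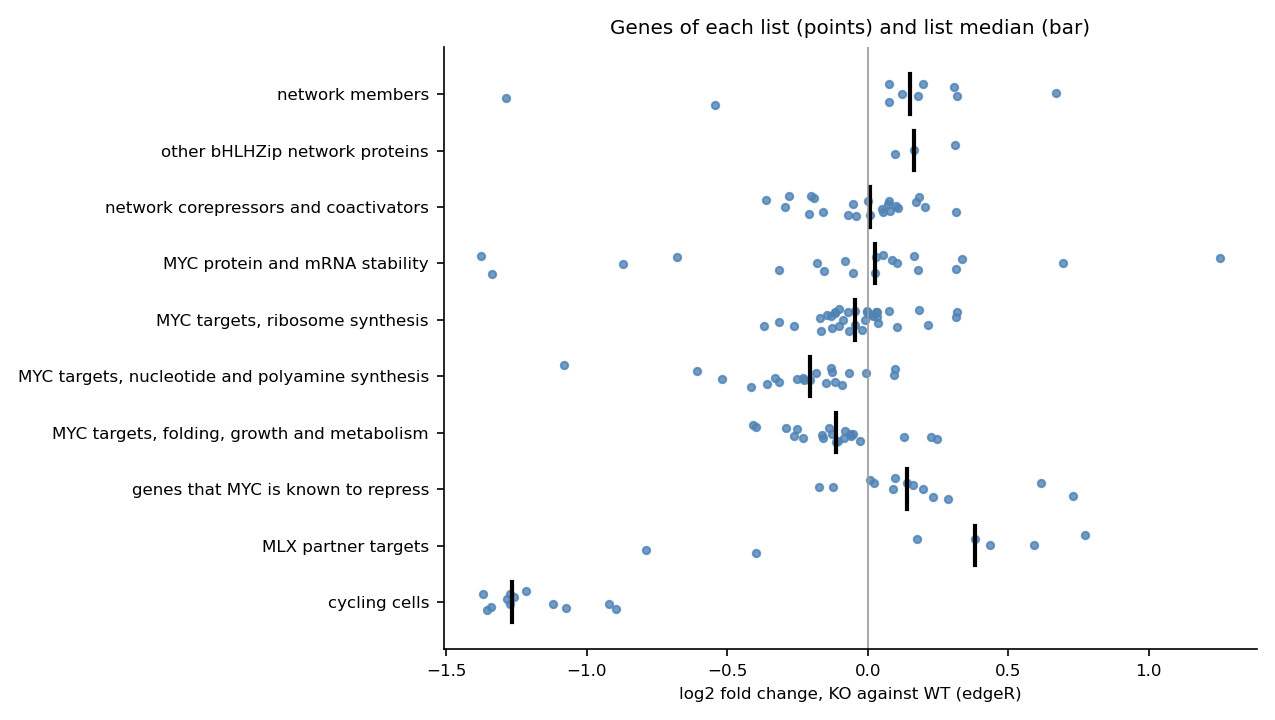
Log2 fold change of KO against WT (horizontal axis, edgeR) for each tested gene (points) of the network members, 8 further lists of network genes and the cycling markers, with a black bar at each list's median. Medians run from -1.27 for the cycling markers and -0.20 for nucleotide and polyamine synthesis to 0.38 for the targets of MLX partners.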

How the data were processed

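Whole-pancreas RNA of 3 WT and 3 KO mice was sequenced after a stranded mRNA library preparation, per the labels' protocols. The submitters' processing notes name bcl2fastq, Salmon 0.13.1, DESeq2 1.24.0 and the mm10 build, and the transcript set is not stated there. The authors deposited, per library, Salmon's estimated counts, which are not whole numbers and not normalized, its TPM values and its effective lengths (used in 1 alternative) for 116248 transcripts. Of these, 115995 matched GENCODE M21 by versioned identifier with equal length. The authors' scaled table of the whole series was not used.

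Estimated counts were summed to 35527 genes (Python 3.11.15, pandas 2.3.3), rounded and tested with edgeR 4.0.16's quasi-likelihood test (R 4.3.3, TMM, filterByExpr, Benjamini-Hochberg over 15805 genes, threshold 0.05). Alternatives used other scalings and filters, DESeq2 1.42.0, limma-voom (limma 3.58.1), a transcript length offset and fewer libraries. The tests were also run on simulated counts made from the fit of these data, with results not given here. Log2 CPM patterns used a pseudocount of 0.5. All 10 members, the lists and the libraries to leave out were chosen with earlier results of these data known. Named from each list were the 3 genes with the smallest p, plus Mga, Mlxip, Mlxipl, Sin3a and Sin3b, and the genes nearest in pattern (mean of at least 5 CPM) to the 3 members with the smallest p. Arrdc4 and the cycling markers named were picked from their lists after their values were seen. Replicate numbers follow sample order and pair no libraries, and p-values measure the spread between these mice.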

Additional observations from a re-analysis of the deposited data

How the results depend on the processing

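With 3 libraries a group, and levels of a few CPM for Mycl, Mxd3 and Mycn, small differences could not be resolved. By edgeR, 0 genes were called in either direction, and 1996 had an unadjusted p under 0.05. DESeq2 called 132 genes higher and 304 lower, limma-voom 1 in each direction, edgeR without a low-count filter 1 lower, and edgeR without WT 1 and KO 2 1 in each direction. Leaving out single libraries gave 0 to 87 genes called higher and 0 to 275 lower, the highest counts without KO 1. The count of members with an unadjusted p under 0.05, 4, was 2 to 4 when single libraries were left out and 3 to 5 otherwise. Mxd3 alone among the members was called under any alternative, by DESeq2 and without KO 1. No paired analysis was possible because the labels give no replicate numbers. With single libraries left out, log2 fold changes ranged from -0.072 to 0.37 for Mxd1, from -0.046 to 0.15 for Mnt (-0.0011 without WT 1) and from -0.0017 to 0.16 for Mlx, so these 3 changed sign. The other 7 members kept their sign under all alternatives. Of the list medians, that of Mga, Mlxip and Mlxipl was 0.26 with the length offset, that of corepressors and coactivators was -0.012 with upper-quartile factors and -0.017 to 0.052 with single libraries left out, and that of MYC stability genes was 0.0037 with upper-quartile factors, 0.0018 with the length offset and -0.041 to 0.026 with single libraries left out. Without WT 1 and KO 2 the folding, growth and metabolism median was -0.19 and the MLX partner target median 0.18, and the latter was 0.24 to 0.48 with single libraries left out. The Mxi1-203 share differed by -3.97 to 2.75 percentage points with single libraries left out. The cause of these changes was not tested.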
